A study of Mus musculus with 6 samples.

Results

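The 46 genes described here build and regulate the contacts between epithelial cells, or mark the mesenchymal state that cells enter when those contacts are lost. They are 16 tight junction genes, 11 genes of adherens junctions and desmosomes, 4 keratins, 7 genes of epithelial polarity, splicing and surface, and 8 mesenchymal genes. The members are a list of named genes, with no threshold on a measured value, chosen with earlier results of these data known. All 46 have a probe set that the platform annotation assigns to exactly 1 gene, among 18193 genes with such a probe set. For each gene the probe set with the highest mean over the 6 arrays was read, and it is called the brightest below.

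Expression was measured on Affymetrix mouse arrays, each hybridized with whole-lung RNA of a single animal, 3 in the LC-HFD group and 3 in the LC-RD group. All 6 mice carried CC10-rtTA/tet-O-EGFR-L858R on a C57BL/6 background, in which the CC10 promoter directs a doxycycline-dependent activator to the airway and lung epithelium, and the activator turns on a mutant human EGFR. Adult males were used, all received doxycycline (diet at 625 ppm and drinking water at 2 mg/ml, for 7 weeks by the labels), and LC-HFD mice ate a high-fat diet with 60% of its energy from fat, where LC-RD mice ate a regular diet. The labels place the start of doxycycline at 8 weeks, and the study's methods give a different schedule. Mice without the EGFR transgene were not analyzed here, so each difference below is between diets within tumor-bearing lungs. The paper reports heavier lungs and a greater tumor burden in LC-HFD than in LC-RD mice. Diet and tumor content therefore cannot be told apart in these differences.

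Each deposited value is a log2 signal after GCRMA, so a difference of 1 is a 2-fold difference in signal. Values of different genes come from different probes and cannot be ranked against each other. The groups were compared with limma over 45037 probe sets with Benjamini-Hochberg adjustment, and a gene is said to pass, rise or fall when its adjusted p was under 0.05. Errors after ± are SDs between 3 mice. In whole lung, fewer cells of a type and less RNA per cell cannot be told apart.

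The 2 sets of arrays also differed in control probe sets. The 18S rRNA probe sets averaged 7.57 to 7.69 on the LC-HFD arrays and 12.5 on every LC-RD array, and the spiked hybridization controls averaged 11.5 against 10.0. RNA integrity, read as the 3' minus 5' difference over 4 control genes, was 1.584 to 1.696 in LC-HFD and 1.703 to 1.761 in LC-RD, without overlap. Diet and array handling therefore cannot be told apart for any gene named here. Markers of the alveolar epithelium were bright in both groups: the mean of 7 alveolar type II markers, of which Sftpc lay at the top of the scale (13.8) on every array and so could not show a rise, was 12.5 on all 6 arrays, and that of 8 type I markers was 11.1 to 11.2 in LC-HFD and in LC-RD.

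Tight junctions seal the space between neighboring epithelial cells, and claudins set which ions and molecules pass. Adherens junctions hold cells together through E-cadherin and the catenins bound to its tail, and desmosomes anchor the keratin network to the membrane. In an epithelial-mesenchymal transition, transcription factors of the Snail, Zeb and Twist families repress these genes, commonly through E-box sites in their promoters, while Vim, Fn1 and Cdh2 come to be expressed. The airways and alveoli of the lung are lined by epithelia that carry these junctions.

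To show the sequence in which such repressor sites are sought, the 250 bases before the transcription start are given for 4 genes. Jup had the largest rise among the 46 genes, Krt18 and Cldn7 also rose, and Epcam is a general marker of epithelium. The letters CACCTG, bound by Snail and Zeb factors, and CAGGTG, the same site on the other strand, are in capitals. The windows are from RefSeq on GRCm38.p6 and are written 5′ to 3′ on the strand of the gene. They lie at chr11:100397791-100398040 on the minus strand for Jup, at chr15:102027966-102028215 on the plus strand for Krt18, at chr11:69965171-69965420 on the plus strand for the downstream of the starts listed for Cldn7, and at chr17:87635729-87635978 on the plus strand for Epcam.
Jup: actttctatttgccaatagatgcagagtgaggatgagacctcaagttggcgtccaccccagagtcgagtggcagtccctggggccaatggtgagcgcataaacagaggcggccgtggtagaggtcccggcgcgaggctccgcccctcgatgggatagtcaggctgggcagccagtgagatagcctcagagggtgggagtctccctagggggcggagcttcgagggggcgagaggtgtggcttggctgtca
Krt18: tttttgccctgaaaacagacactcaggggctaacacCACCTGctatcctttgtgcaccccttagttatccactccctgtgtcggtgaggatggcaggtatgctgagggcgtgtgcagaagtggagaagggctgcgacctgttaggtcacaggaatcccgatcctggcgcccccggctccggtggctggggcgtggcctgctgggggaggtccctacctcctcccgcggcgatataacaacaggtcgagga
Cldn7: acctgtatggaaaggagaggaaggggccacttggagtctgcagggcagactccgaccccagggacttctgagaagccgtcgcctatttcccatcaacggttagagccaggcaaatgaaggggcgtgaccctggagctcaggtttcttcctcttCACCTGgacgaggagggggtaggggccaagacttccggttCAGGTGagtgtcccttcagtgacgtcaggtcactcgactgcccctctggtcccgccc
Epcam: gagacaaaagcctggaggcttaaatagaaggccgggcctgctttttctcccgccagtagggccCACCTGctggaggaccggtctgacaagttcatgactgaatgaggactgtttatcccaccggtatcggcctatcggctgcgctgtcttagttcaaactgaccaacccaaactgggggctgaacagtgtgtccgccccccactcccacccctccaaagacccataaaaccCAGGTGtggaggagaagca

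The Jup window holds no match, the Krt18 window 1, and the printed Cldn7 window and the Epcam window 2 each. The window before the upstream start of Cldn7, at chr11:69964529-69964778, holds none. In Epcam the matches begin 187 and 19 bases before the start, and in Cldn7 97 and 57 bases before it. Of the 46 genes, 30 have a listed promoter, and 14 of these (46.7%) hold a match in at least 1 window, against 19.4% of 27025 genes. Counted by window, 16 of 45 windows of these genes (35.6%) and 17.2% of all 32851 windows hold one. A match is a stretch of letters and not a measured binding site.

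LC-HFD lungs had higher signal for 8 of the 46 genes and lower signal for 6, and the remaining 32 did not pass, that is 30.4% passing. Over all 18193 genes 27.3% passed, 11.1% higher and 16.2% lower, so the share that passed was near the background in this fit. Jup and Dsg2 alone passed with a change over 2-fold, which 1.68% of all genes did. The values of the groups did not overlap for 30 of the 46 genes, 17 higher and 13 lower, against 49.1% of all genes. The median difference was 0.06 log2 units (0.02 over all genes), and the median size of a difference regardless of sign was 0.21 (0.20 over all genes). The epithelial genes passed in both directions, with 8 of 38 higher and 5 lower, and Snai2 was the 1 gene of 8 to pass among the mesenchymal genes. The counts depend on the array set: they were 5 higher and 4 lower without LC-RD replicate 1 or without LC-RD replicate 2. With that 3' minus 5' difference as a covariate they were 4 higher and 1 lower. Calls over all 18193 genes also became fewer, from 2014 higher and 2951 lower in the reported fit. They were 967 and 1553 without LC-RD replicate 1, 970 and 1543 without LC-RD replicate 2, and 583 and 917 with the covariate. The covariate did not overlap between the groups, so its effect and that of diet cannot be fully separated. A call lost with it therefore does not show a dependence on RNA integrity.

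**Figure D1:**
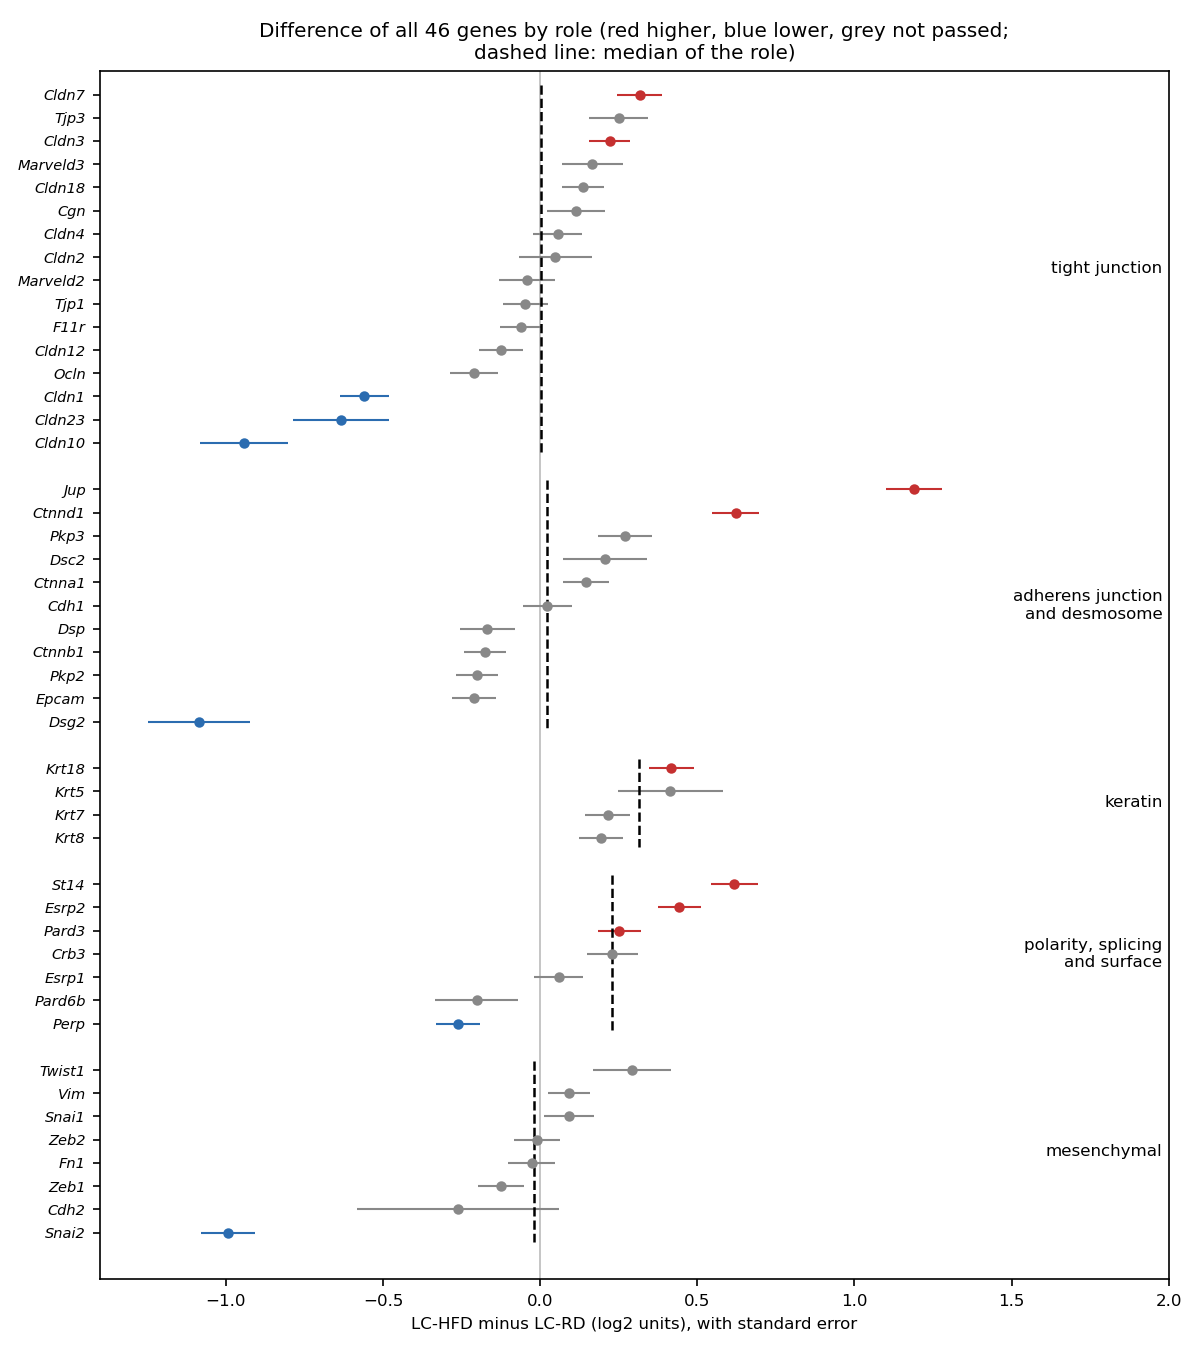
Difference in log2 value between LC-HFD and LC-RD for all 46 genes, grouped by role; points are limma estimates from 3 mice per group, bars are standard errors, and dashed lines are the median of each role. Jup lies farthest to the right at 1.19 and Dsg2 farthest to the left at −1.09, while most genes lie within 0.3 of 0.

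Jup and Ctnnd1, which both encode catenins, were higher in LC-HFD lungs. Jup encodes plakoglobin, the catenin that adherens junctions and desmosomes share. It read 8.84, 8.62 and 8.68 in the LC-HFD lungs and 7.50, 7.46 and 7.60 in the LC-RD lungs. The lowest LC-HFD value lay over 1 log2 unit above the highest LC-RD value. The mean was 8.71 ± 0.116 against 7.52 ± 0.0717, which is 1.19 log2 units (standard error 0.0879, limma adjusted p = 0.000392) or 2.28-fold. Jup passed under all 17 other settings, with an adjusted p of at most 0.00769. Its probe set is of a type that can read several transcripts, and no other is listed for the gene.

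Ctnnd1 encodes p120-catenin, which keeps cadherins at the cell surface. Its LC-HFD values were 9.53, 9.69 and 9.58 and its LC-RD values 8.95, 8.96 and 9.03, with no overlap. The difference was 0.62 (standard error 0.0761, limma adjusted p = 0.00214) on a probe set that, like that of Jup, can read several transcripts. A further probe set also rose, by 0.67, but the dimmest of the 3 fell by 0.46 (adjusted p = 0.0112). The direction of Ctnnd1 thus depends on the probe set.

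Cdh1 encodes E-cadherin, the cadherin of epithelial adherens junctions, and did not pass. It read 11.13, 10.94 and 11.05 in LC-HFD and 11.03, 11.03 and 10.99 in LC-RD. The groups overlapped, and the difference of 0.02 (adjusted p = 0.851) had a 95% interval of −0.16 to 0.21. A change in Cdh1 signal beyond about these bounds was therefore not seen on its 1 probe set.

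Ctnnb1 encodes β-catenin, which links E-cadherin to α-catenin and also acts in Wnt signaling. Its brightest probe set read 12.32, 12.30 and 12.29 in LC-HFD and 12.49, 12.45 and 12.49 in LC-RD. All LC-HFD values were below all LC-RD values, with a difference of −0.18 (adjusted p = 0.0942), which did not pass. The other probe sets of Ctnnb1 fell by 0.39 and 0.37 and both passed (adjusted p = 0.00835 and 0.00809 respectively). Ctnna1, the α-catenin that connects the complex to actin, gave 0.14 (adjusted p = 0.187) and 0.05 to 0.30 on its other 3 probe sets.

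Epcam, an adhesion protein at the surface of epithelial cells, read 10.56, 10.61 and 10.50 in LC-HFD and 10.76, 10.78 and 10.76 in LC-RD. The groups lay apart with LC-HFD the lower, but the difference of −0.21 did not pass (adjusted p = 0.0651). It passed under 5 of 17 other settings.

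Among desmosome genes, Dsg2 was lower. It encodes desmoglein 2, a desmosomal cadherin of simple epithelia. Its brightest probe set read 5.02, 5.11 and 5.64 in LC-HFD and 6.27, 6.31 and 6.45 in LC-RD. The third LC-HFD lung stood above the other two and still below every LC-RD lung. The difference was −1.09 (standard error 0.161, limma adjusted p = 0.00421). Of its 6 probe sets 1 more fell, by 0.86, and the remaining 4 gave 0.01 to 0.26 without passing. With the median probe set in place of the brightest, Dsg2 gave 0.12 and did not pass, and with the 3' minus 5' covariate it gave −0.90 (adjusted p = 0.0615).

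The other desmosome genes did not pass on their brightest probe sets. Pkp2 and Pkp3, plakophilins of the desmosomal plaque, gave −0.20 (adjusted p = 0.0683) and 0.27 (adjusted p = 0.0567). Dsp, which encodes the linker desmoplakin, gave −0.17 (adjusted p = 0.198), and Dsc2, a desmocollin, gave 0.21 at a mean of 3.67 in LC-HFD. A mean under 4 was found for 38.7% of probe sets and is taken here as near background. A dimmer Dsp probe set fell by 0.42 and passed. A Pkp2 probe set at 3.02 in LC-HFD and 4.15 in LC-RD, at the edge of background, fell by 1.13 and passed, while the 2 remaining ones gave −0.13 and 0.30. In all, the adherens junction and desmosome group had 2 of 11 genes higher, 1 lower and 8 not passing, with a median of 0.02.

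**Figure D2:**
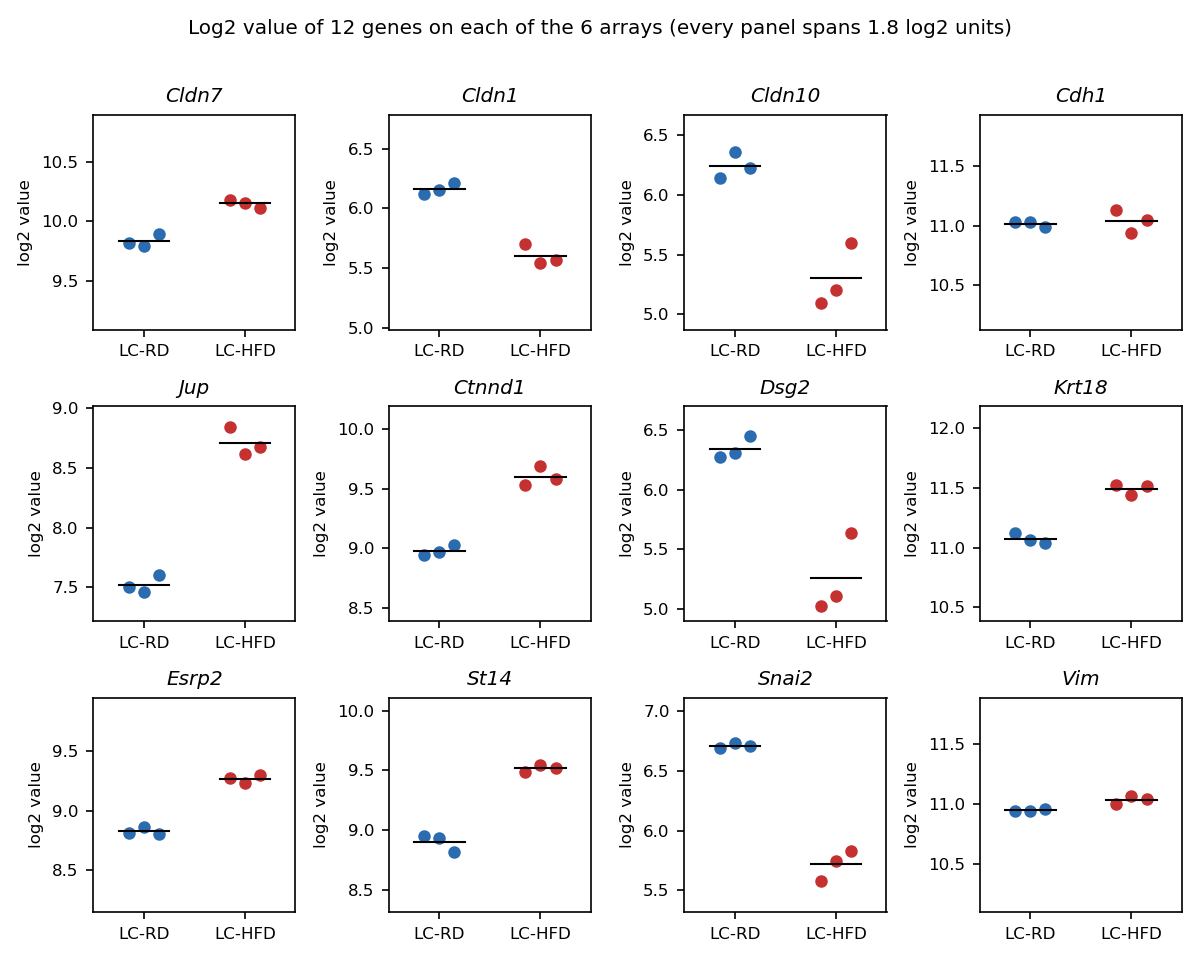
Log2 value (vertical axis) of 12 genes in the individual mice; blue points are LC-RD, red points are LC-HFD, each line is the mean of 3 mice, and all panels span the same range of log2 units around their own center. The groups lie apart for all genes shown other than Cdh1, and for Vim the gap is small.

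Claudins moved in both directions. Cldn7, a claudin of many simple epithelia, read 10.18, 10.16 and 10.12 in LC-HFD and 9.82, 9.80 and 9.89 in LC-RD. Every LC-HFD lung was above every LC-RD lung, with a difference of 0.32 (standard error 0.0707, limma adjusted p = 0.0181) or 1.24-fold. The call was lost without LC-RD replicate 1 (difference 0.31, adjusted p = 0.0791) and without LC-RD replicate 2 (0.30, adjusted p = 0.0788). It was also lost with the replicate block and with the 3' minus 5' covariate (adjusted p = 0.133).

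Cldn3, a sealing claudin, read 11.13, 11.10 and 11.12 in LC-HFD and 10.90, 10.89 and 10.89 in LC-RD. The spread within groups was very small and the difference was 0.22 (standard error 0.0658, limma adjusted p = 0.0475). Leaving out any 1 array moved the adjusted p to between 0.0757 and 0.146, and the 3' minus 5' covariate moved it to 0.204. Its probe set is of a type whose probes can also bind other transcripts, and the 3 others of the gene gave 0.45 (adjusted p = 0.00430), −0.09 and −0.29 (adjusted p = 0.0282). No direction can be given for Cldn3 across its probe sets. Cldn4, its neighbor on chromosome 5, gave 0.06 (adjusted p = 0.625).

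Cldn10, a claudin that forms ion-selective pores, was lower in LC-HFD lungs. It read 5.10, 5.20 and 5.60 in LC-HFD and 6.15, 6.36 and 6.23 in LC-RD. The groups lay apart with a difference of −0.94 (standard error 0.139, limma adjusted p = 0.00409), or 1.92-fold lower. Its only probe set, like that of Jup, is of a type that can read several transcripts. The call held under 15 of the 16 other settings that tested it. The exception was the 3' minus 5' covariate, where the difference was −0.77 (adjusted p = 0.0603).

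Cldn1, a sealing claudin that the barrier of the skin requires, read 5.70, 5.54 and 5.57 in LC-HFD and 6.12, 6.16 and 6.22 in LC-RD. The difference was −0.56 (standard error 0.0781, limma adjusted p = 0.00331), without overlap. Its 3 dimmer probe sets had means under 4 in both groups and gave −0.24 to −0.01. The Cldn1 call was lost with the median probe set, which gave −0.15 (adjusted p = 0.159), and with the 3' minus 5' covariate (−0.50, adjusted p = 0.0506). Cldn23 read 4.48, 4.17 and 4.78 in LC-HFD and 5.11, 5.21 and 5.01 in LC-RD. Here too all LC-HFD lungs were lower, by −0.63 (standard error 0.154, limma adjusted p = 0.0239). The adjusted p of Cldn23 was 0.0514 to 0.0874 when LC-HFD replicate 1 or any LC-RD array was left out, and with the covariate its difference was −0.31 (adjusted p = 0.250).

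The remaining claudins did not pass on their brightest probe sets. Cldn18, a claudin of the alveolar epithelium, gave 0.14 on its brightest probe set (adjusted p = 0.174) and 0.25 on the other (adjusted p = 0.0471). Cldn2 gave 0.05 and Cldn12 −0.13.

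The genes of tight junction scaffold and other membrane proteins did not pass on their brightest probe sets. Ocln, which encodes occludin, read 8.57, 8.45 and 8.44 in LC-HFD and 8.66, 8.67 and 8.76 in LC-RD. All LC-HFD values were below all LC-RD values, but the difference of −0.21 did not pass (adjusted p = 0.0851). Tjp1, which encodes the scaffold ZO-1, read 10.57, 10.58 and 10.53 in LC-HFD and 10.61, 10.54 and 10.67 in LC-RD. Its groups overlapped, and the difference of −0.05 (adjusted p = 0.649) had a 95% interval of −0.22 to 0.12. Tjp3, another ZO scaffold, gave 0.25 with no overlap (adjusted p = 0.0931), and F11r, an adhesion molecule, gave −0.06. Marveld2 and Marveld3, relatives of occludin, gave −0.04 and 0.17, and Cgn, which encodes cingulin, gave 0.12, with 0.66 on its dimmer probe set (adjusted p = 0.00489). The 16 tight junction genes divided into 2 higher, 3 lower and 11 not passing, with a median of 0.00.

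All 4 keratins had positive differences, and 1 passed. Krt18, which pairs with Krt8 in the intermediate filaments of simple epithelia, read 11.52, 11.44 and 11.51 in LC-HFD and 11.13, 11.06 and 11.04 in LC-RD. The lowest LC-HFD value was above the highest LC-RD value, and the difference was 0.42 (standard error 0.0705, limma adjusted p = 0.00657) or 1.34-fold. With the 3' minus 5' covariate it was 0.44 (adjusted p = 0.0561).

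Krt8, next to Krt18 on chromosome 15, read 11.77, 11.85 and 11.86 in LC-HFD and 11.66, 11.60 and 11.63 in LC-RD. The groups lay apart, but 0.19 did not pass on this probe set (adjusted p = 0.0852), while the other 2 probe sets gave 0.33 (adjusted p = 0.0120) and 0.23 (adjusted p = 0.0476). Krt7, another keratin of simple epithelia, gave 0.21 (adjusted p = 0.0695) with no overlap. Krt5, the keratin of airway basal cells, gave 0.41 (adjusted p = 0.111) with overlap. The median of the keratins was 0.31.

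Among genes of polarity, splicing and the cell surface 3 of 7 were higher and 1 was lower, with a median of 0.23. St14 encodes matriptase, a serine protease of the epithelial surface. It read 9.48, 9.55 and 9.52 in LC-HFD and 8.95, 8.94 and 8.81 in LC-RD. The groups lay over 0.5 log2 units apart, and the difference was 0.62 (standard error 0.0747, limma adjusted p = 0.00205) or 1.53-fold. St14 passed under all 17 other settings.

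Esrp2 and Esrp1 encode regulators of splicing that maintain epithelial isoforms. Esrp2 read 9.27, 9.23 and 9.30 in LC-HFD and 8.81, 8.86 and 8.80 in LC-RD. Every LC-HFD value was higher, with a difference of 0.44 (standard error 0.0685, limma adjusted p = 0.00484). The dimmer probe set of Esrp2 gave −0.05, and the median of its probe sets gave 0.20, which did not pass (adjusted p = 0.165). Esrp1 gave 0.06 (adjusted p = 0.601).

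Pard3, a scaffold of the apical polarity complex, read 7.97, 7.97 and 7.99 in LC-HFD and 7.76, 7.74 and 7.68 in LC-RD. The difference was small but without overlap, at 0.25 (standard error 0.0676, limma adjusted p = 0.0340). Of the other probe sets of Pard3, 2 rose by 0.74 and 0.46, and the remaining one gave −0.02 (adjusted p = 0.937). Perp, a membrane protein that p53 and p63 induce and that desmosomes require in stratified epithelia, was the 1 gene of this group to fall. It read 8.14, 8.13 and 8.20 in LC-HFD and 8.44, 8.37 and 8.44 in LC-RD. The groups lay apart by a small margin, with a difference of −0.26 (standard error 0.0697, limma adjusted p = 0.0333). Leaving out any 1 array gave an adjusted p of 0.0533 to 0.106 for Pard3 and 0.0503 to 0.123 for Perp, so both calls need all 6 arrays. With the 3' minus 5' covariate the adjusted p was 0.182 for Pard3 and 0.197 for Perp. Crb3, an apical polarity protein, gave 0.23 (adjusted p = 0.0764) and Pard6b, a partner of Pard3, gave −0.20 (adjusted p = 0.294).

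Of the mesenchymal genes, Snai2 was lower in LC-HFD lungs. It encodes Slug, a Snail family repressor of E-cadherin and other epithelial genes. The brightest probe set read 5.58, 5.75 and 5.83 in LC-HFD and 6.70, 6.73 and 6.71 in LC-RD. The LC-RD lungs were almost the same, and all LC-HFD lungs lay far below them. The mean was 5.72 ± 0.125 against 6.71 ± 0.0192, a difference of −0.99 (standard error 0.0851, limma adjusted p = 0.000634) or 1.99-fold lower. Although that probe set is of a type that can also bind other transcripts, the second probe set fell by 0.87 and passed (adjusted p = 0.00215). Snai2 passed under all 17 other settings. Fibroblasts also express Snai2. Of 10 fibroblast and smooth muscle markers 1 was higher and 3 were lower, with Col1a1 rising by 0.48 (adjusted p = 0.00605) and Pdgfra falling by 0.49 (adjusted p = 0.00357), Tcf21 by 0.30 and Dcn by 0.25. The mean of those markers was 8.58 to 8.67 in LC-HFD and 8.64 to 8.68 in LC-RD, and its part in the difference of Snai2 was not tested.

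Vim encodes vimentin, the intermediate filament of mesenchymal cells. It read 10.997, 11.071 and 11.046 in LC-HFD and 10.939, 10.938 and 10.963 in LC-RD. The groups were close and just apart, and the difference of 0.09 did not pass (adjusted p = 0.352, 95% interval −0.07 to 0.25). Fn1, which encodes fibronectin, read 10.31, 10.42 and 10.38 in LC-HFD and 10.43, 10.44 and 10.32 in LC-RD. These overlapped, with a difference of −0.03 (adjusted p = 0.818, 95% interval −0.20 to 0.15).

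Zeb1 and Zeb2 encode repressors that bind the same E-box as Snai2. Zeb1 read 7.51, 7.59 and 7.62 in LC-HFD and 7.68, 7.67 and 7.76 in LC-RD. The difference of −0.12 did not pass (adjusted p = 0.248), though a dimmer probe set fell by 0.50 (adjusted p = 0.00396). Zeb2 read 7.38, 7.32 and 7.41 in LC-HFD and 7.38, 7.44 and 7.32 in LC-RD. Its groups overlapped fully, with −0.01 on the brightest probe set (adjusted p = 0.924), while the next brightest fell by 1.01 (adjusted p = 0.000550) and the other 3 did not pass. The value of Zeb2 therefore depends on the probe set.

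Snai1, Twist1 and Cdh2 were near background. Snai1, which encodes Snail, read 3.98, 3.86 and 3.90 in LC-HFD and 3.86, 3.88 and 3.73 in LC-RD (difference 0.09, adjusted p = 0.426). Twist1 read 2.35, 2.72 and 2.28 in LC-HFD and 2.10, 2.20 and 2.17 in LC-RD (difference 0.29, adjusted p = 0.126). Cdh2, which encodes N-cadherin, read 3.70, 4.08 and 3.15 in LC-HFD and 3.50, 4.55 and 3.67 in LC-RD. The lungs of each group differed more from one another for Cdh2 than for any other gene of the 46, and the difference of −0.26 had a 95% interval of −1.02 to 0.49 (adjusted p = 0.575). The dimmer Cdh2 probe set fell by 0.79, from 4.15 in LC-RD to 3.35 in LC-HFD (adjusted p = 0.0445), although its groups overlapped. Snai1 and Twist1, which have 1 probe set each, did not pass, although the Twist1 groups lay apart with LC-HFD the higher. Near background, the lack of a call does not show the lack of a difference.

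**Figure D3:**
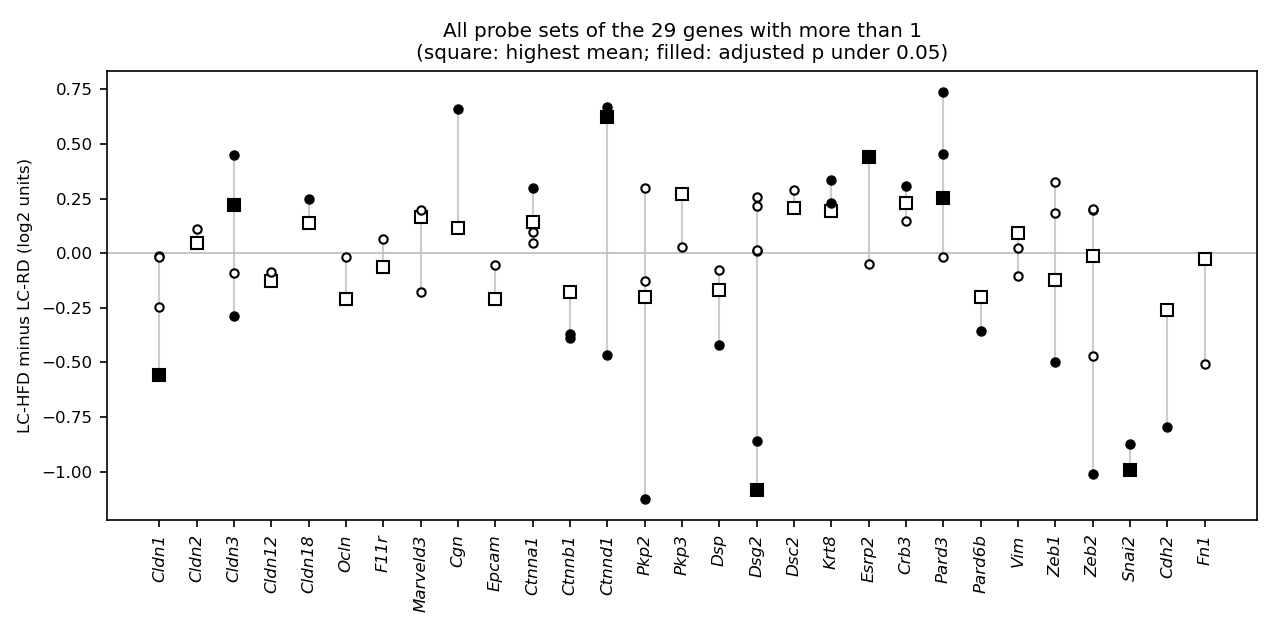
Difference between LC-HFD and LC-RD on every probe set of the 29 genes that have more than 1; squares are the brightest probe set, circles the others, and filled symbols passed with limma. The 2 probe sets of Snai2 lie together at −0.99 and −0.87, while those of Ctnnd1, Pkp2, Dsg2 and Zeb2 are spread over about 1 log2 unit or more.

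Probe sets of 1 gene often gave different values. The 46 genes have 101 probe sets, 17 genes with 1 and 29 with several. Of the 55 probe sets other than the brightest, 38 had the sign of the brightest, 17 had the opposite sign and 22 passed. For Cldn3 and Ctnnd1 a probe set passed in the direction opposite to the brightest. For 12 of the 32 genes that did not pass, a dimmer probe set did. Over all 45037 probe sets, the brightest ones included, 11250 passed. How often a dimmer probe set passes over all genes was not counted, so no comparison is drawn.

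Further genes of the same pathways, from lists made beside the members, were read the same way, and 31 of 101 passed (30.7%), of which 20 rose and 11 fell. Like the members, these lists were chosen with earlier results of these data known. Over all genes 27.3% passed, 11.1% higher and 16.2% lower, so the share that passed was near the background. The same shares over all genes stand beside the counts of each list and of the cell type markers below. Tight junction genes outside the members had 5 of 25 higher and 3 lower. Lsr, which places tricellular junctions, rose by 0.52 (adjusted p = 0.00397) and its relative Ildr2 by 0.45 (adjusted p = 0.00950). Mpdz, a scaffold of tight junctions, fell by 1.03 (adjusted p = 0.000378) on its brightest probe set, with −0.13 to 0.26 on the 3 others.

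Of 19 further adherens junction and desmosome genes 2 were higher and 2 were lower, all of them nectins, adhesion molecules that work beside cadherins. Nectin2 rose by 0.96 (adjusted p = 0.000833; 0.32 on its other probe set). Nectin1 rose by 1.03 (adjusted p = 0.000351), though its other probe sets gave −0.13 and 0.52, while Nectin4 fell by 0.56 (adjusted p = 0.0216) and Nectin3 by 0.29 (adjusted p = 0.0262). The other probe set of Nectin4 gave −0.11, and the 5 others of Nectin3 gave −0.51 to 0.36, with 1 passing in the opposite direction. Cdh3, which encodes P-cadherin, gave 0.13 (adjusted p = 0.370). Of 11 further keratins 3 were higher and 1 was lower. Krt80 rose by 0.69 (adjusted p = 0.00403), Krt20 rose by 0.54 near background and Krt10 fell by 0.47 (adjusted p = 0.0345). Krt19, a keratin of simple epithelia like Krt8 and Krt18, rose by 0.42 (adjusted p = 0.00591).

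Transcription factors and other regulators of epithelial identity had 5 of 22 genes higher and 2 lower. Klf5, a factor of epithelial growth, rose by 0.72 on its brightest probe set (adjusted p = 0.00134). Of its 2 dimmer probe sets, 1 gave −0.98 and passed in the opposite direction. The direction of Klf5 thus depends on the probe set. Grhl2, which maintains junction genes, rose by 0.42 (adjusted p = 0.00858) and gave 0.14 to 0.27 on its 3 other probe sets. Grhl3 rose by 0.48 near background. Ehf, an Ets factor of epithelia, fell by 0.73 (adjusted p = 0.00346; −0.72 to 0.20 on the others).

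Among 24 further genes of the mesenchymal transition 5 were higher and 3 lower. Tgfb1, which encodes the cytokine best known for inducing this transition, rose by 1.93 on its brightest probe set (adjusted p = 4.05e-05) and gave 0.15 on the other. Tgfb2 rose by 0.59 (adjusted p = 0.00383) and gave 0.06 to 0.29 on the others. Cdh11, a cadherin of mesenchymal cells, fell by 0.62 (adjusted p = 0.00181) and by 0.80 on its other probe set.

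Lists of cell type markers were read in the same lungs, and they do not show which cells carried these genes. Neither the type I nor the type II alveolar list separated the groups, with 1 of 8 higher and 1 lower, and 1 of 7 higher and 0 lower. Club cell markers had 1 of 6 higher and 3 lower, and their mean was 11.1 to 11.2 in LC-HFD and 11.2 to 11.3 in LC-RD. Of 5 mesothelial markers 3 were lower and 1, Krt19, was higher, with a mean of 6.45 to 6.67 against 6.75 to 6.85. Of 4 basal cell markers 0 passed (means of 3.72 to 3.81 and 3.31 to 3.40), the list that goes with Krt5. Macrophage markers, with 2 of 7 higher, had a mean of 9.36 to 9.40 in LC-HFD and 9.25 to 9.27 in LC-RD. Of 7 ciliated cell markers 0 were higher and 1 was lower, of 7 endothelial markers 2 were higher and 2 lower, and of 7 lymphocyte markers 1 was higher and 1 lower. The part of any cell type in the differences above was not tested.

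**Figure D4:**
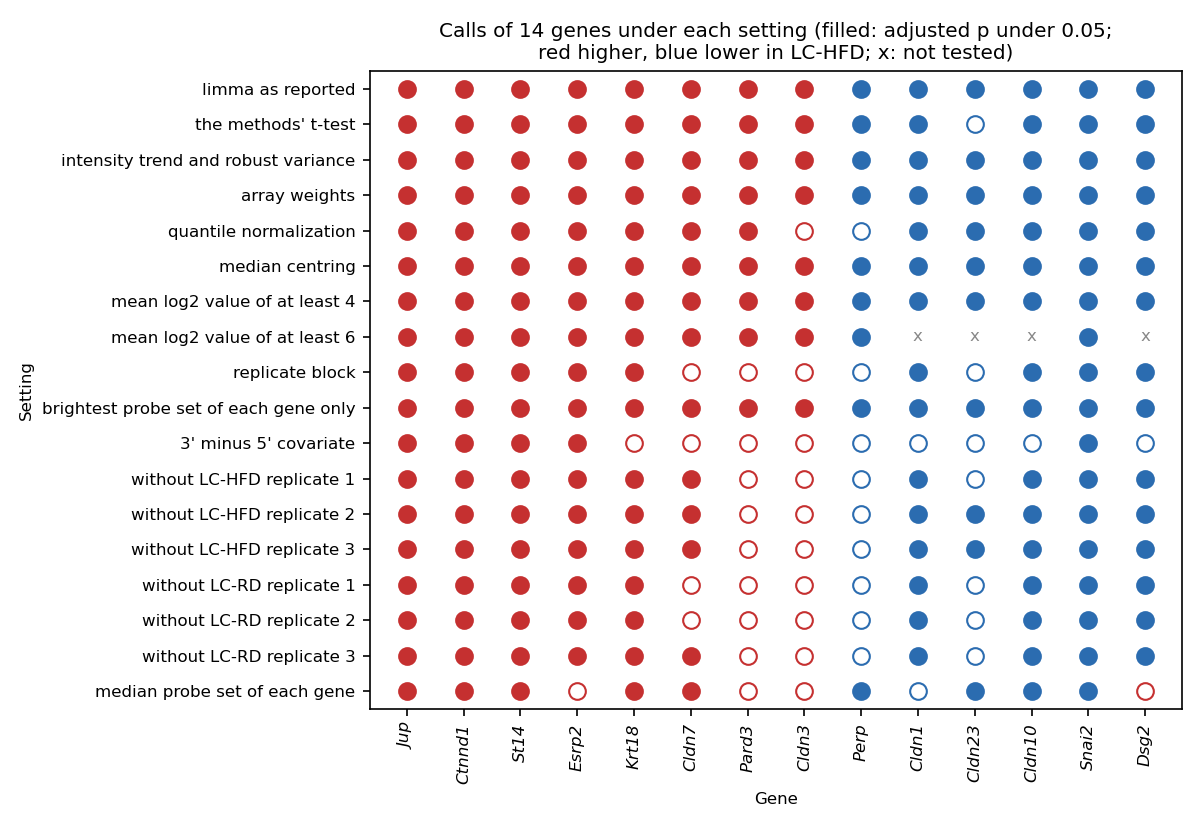
Calls of the 14 genes that passed (columns, from the largest rise to the largest fall) under the reported fit and 17 other settings (rows); filled circles have an adjusted p under 0.05, color gives the direction and x marks a gene not tested under that setting. Jup, Ctnnd1, St14 and Snai2 are filled in every row, while Cldn3, Pard3 and Perp are open whenever an array is left out.

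Across the settings, 4 of the 14 genes passed every time: Jup, Ctnnd1 and St14 as higher and Snai2 as lower. A threshold of 2-fold was set apart from these settings and left Jup and Dsg2. All 14 genes other than Dsg2 kept their direction under the settings that tested them.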

How the data were processed

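Total RNA of 6 lungs was labeled with biotin and hybridized to Affymetrix mouse genome arrays, 1 per mouse, and the CEL files were processed in Partek software. The authors deposited log2 values for 45101 probe sets, with GCRMA named in the submitters' notes (background correction from probe sequence, then normalization across arrays). Neither version nor settings are stated in the sources used here. Array medians were 4.79 to 4.84, and no column per sample was left unused (0). The number of arrays limits the precision.

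No further normalization was applied, and 64 control probe sets were set aside. Genes were assigned from the platform annotation, with symbols updated by Entrez ID for 34754 probe sets, and a probe set of several genes was given no name. Groups came from the sample titles (HFD+Dox as LC-HFD, RD+Dox as LC-RD). LC-HFD was compared with LC-RD by limma 3.58.1 in R 4.3.3 (lmFit and eBayes, two-sided) over 45037 probe sets with Benjamini-Hochberg adjustment, at an adjusted p of 0.05. The steps were tested on simulated data. Alternatives were the methods' t-test, array weights, median centring, quantile normalization, an intensity trend together with robust variance, minimum mean log2 values of 4 and 6, a 2-fold threshold, a replicate block, the median probe set of a gene, adjustment over brightest probe sets, each array left out in turn and, chosen after the data were seen, a 3' minus 5' covariate. No pseudocount applies to values already on a log2 scale.

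Values on every array are given for up to 5 passing members of each role with the largest differences, and for Cdh1, Epcam, Ctnnb1, Tjp1, Ocln, Krt8, Krt18, Vim, Zeb1, Zeb2, Snai1, Snai2, Twist1, Cdh2 and Fn1 whatever their values. Of the further lists, the 3 passing genes with the largest differences are named. Krt19, Nectin3, Cdh3, Grhl2 and the cell type markers, and the members outside this rule, were named after their values were seen. The members and lists were chosen with earlier results of these data known. Figures were drawn with matplotlib 3.10.9 in Python 3.11.15.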

Additional observations from a re-analysis of the deposited data

How the results depend on the processing

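In the reported fit 8 of the 46 genes were higher and 6 lower. The counts were 1 and 1 with a 2-fold threshold, 15 and 11 with an intensity trend and robust variance, 4 and 1 with the 3' minus 5' covariate, and 5 to 7 and 4 to 5 with 1 array left out. Among probe sets with a mean of at least 4 there were 12 higher and 10 lower genes of 42 tested. Over all genes these counts were 2102 and 3572 of 13083. At a mean of at least 6 there were 14 higher and 6 lower of 36, and 1751 and 3244 of 9084 over all genes. The methods' t-test gave 11 and 8 after Benjamini-Hochberg adjustment, with Jup and Dsg2 past the 2-fold threshold of the methods. The study's published list of changed genes holds Jup as higher and does not hold Dsg2. The remaining counts stayed within 1.5 times the reported ones, but not always with the same genes. With the median probe set there were 10 higher and 7 lower, with 5 calls lost (Cldn1, Cldn3, Dsg2, Esrp2 and Pard3) and 8 gained, and at a mean of at least 6 only 2 of the 6 lower genes were shared, since 4 were not tested. Over all 18193 genes 2014 rose and 2951 fell in the reported fit, and 2565 and 3991 with the intensity trend and robust variance. The methods' t-test gave 1532 and 2343 of all genes, and the covariate fit 583 and 917. How the share of the 46 genes compares with that of all genes therefore depends on the setting. Over all probe sets 11250 passed, 3558 with the covariate, 5792 without LC-RD replicate 2 and 5835 without LC-RD replicate 1. The cause was not tested.

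With the replicate number as a block 6 genes were higher and 4 lower. Cldn3, Cldn7, Cldn23, Perp and Pard3 were lost and Krt5 was gained. Arrays with the same number did not deviate together (r of −0.04, −0.09 and −0.03 across probe sets), so the numbers were not taken as pairs.

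Of the 27 genes given on every array, those that changed sign were not past the threshold on the changed side. With 1 array left out Cdh1 ranged from −0.024 to 0.075, Fn1 from −0.065 to 0.0022, Cdh2 from −0.48 to 0.059 and Zeb2 from −0.040 to 0.018. Dsg2 gave 0.12 with the median probe set. Zeb2 gave 0.061 after quantile normalization, 0.0073 after median centring, 0.048 with the covariate and 0.20 with the median probe set. Snai1, Twist1 and Dsc2, near background, passed under 0 of the 15 other settings that tested them.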
